A study of Homo sapiens with 3 samples.

Results

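The epidermal growth factor receptor family comprises receptor tyrosine kinases and the ligands that bind them, and 10 of its genes are described here: the receptors EGFR, ERBB2 and ERBB3, the ligands AREG, EREG, TGFA, HBEGF, BTC and EPGN, and ERRFI1, an inhibitor of the receptors. Every probe set that the platform annotation pairs with exactly 1 of these genes was taken, whatever its value. This gave 29 of the 54613 non-control probe sets, belonging to 8 of the 10 genes. AREG and EPGN were paired with no probe set in the annotation used and were not analysed here.

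The cells were HT29, an established human colorectal adenocarcinoma line, transduced by lentivirus either with an empty vector (1 array) or with a miR-146a expression construct (2 arrays, labelled replicates 1 and 2). All 3 arrays therefore come from transduced cells, and no untransduced culture is among them. The comparison asks which transcripts differ once miR-146a is expressed. The labels leave unsaid whether the cells were clones or pools and whether replicates 1 and 2 were grown and transduced apart. Every p-value below therefore measures a spread between replicates 1 and 2 that may be technical, and takes the lone vector array to vary as they do.

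In this family, ligands are made as membrane-anchored precursors that metalloproteases of the ADAM type cut free, and a bound ligand brings receptors together in pairs whose kinases then phosphorylate each other. ERBB2 has no known ligand of its own and acts as a partner, whereas ERBB3 has a weak kinase and signals mainly through its partners to PI3 kinase. Active receptors feed the RAS and ERK kinase cascade, and ERK in turn induces several of the ligands and ERRFI1, so that the pathway both feeds and restrains itself. In colon cancer, EGFR is a drug target, and EREG and AREG are the ligands most often followed in tumours. EGFR has been reported as a target of miR-146a.

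The microRNA that distinguishes the arrays is printed here because it defines the comparison. Both of its mature strands are given, since the labels do not say which strand was intended, together with the 5p strand of its paralog miR-146b. The sequences are those of RefSeq (GRCh38.p14), 5′ to 3′, with bases 2 to 8, the seed, in capitals. The strands of miR-146a lie on the plus strand at chr5:160485372-160485393 and chr5:160485408-160485429, and that of miR-146b at chr10:102436520-102436542. The 5p strands of miR-146a and miR-146b share the seed, and the 3p strand has another.
hsa-miR-146a-5p: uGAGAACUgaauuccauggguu
hsa-miR-146a-3p: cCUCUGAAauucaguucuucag
hsa-miR-146b-5p: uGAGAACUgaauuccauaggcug

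Over all non-control probe sets the median log2 value was 5.12 to 5.14 in the 3 arrays. Probe sets were tested where the average of both group means exceeded 5.13, the median over non-control probe sets, and 27306 of 54613 were kept. Of the markers of colon epithelium, 11 of 12 lay above this value in all arrays (GPA33 was the exception), with summed log2 values of 119.8 for the vector and 118.7 and 118.8 for replicates 1 and 2. Their mean differences from the vector ran from -0.54, for the cadherin CDH17, to 0.10. Markers of leukocytes (CD14 and LYZ, 2 of 4), fibroblasts (COL1A1, 1 of 6) and endothelium (PECAM1, 1 of 4) were above it in fewer cases, and their differences between conditions ran from -0.27 to 0.17. The control probe sets at the 5′ ends of ACTB and GAPDH read lower in the miR-146a arrays by -0.32 to -0.18, against -0.025 to 0.046 at their 3′ ends. The part of this 5′ difference in the results below was not tested.

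Of the 29 probe sets of the family, 17 lay above the filter, and they belong to 7 genes, since neither probe set of BTC did. The clearest differences were in 1 of the 2 probe sets of EREG and 1 of the 9 of EGFR. These read 1.64-fold and 1.40-fold higher in the miR-146a cells. At the brightest probe set of each gene, the mean log2 differences of EREG, ERBB2, ERBB3, TGFA and ERRFI1 all lay within 0.072 of 0. Those of EGFR and HBEGF were both 0.15, and the other tested probe set of ERBB3 was at -0.19. In limma with Benjamini-Hochberg adjustment over all 27306 probe sets, 0 member probe sets passed an adjusted p of 0.05, and their adjusted p-values ran from 0.131 to 0.963. The same test called 0.0% of all probe sets, although 6379 of them, 5 of the members included, had an unadjusted p under 0.05.

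Replicates 1 and 2 held identical values for 12.5% of the probe sets tested, and limma's prior degrees of freedom were 0.558. They were 15.1 with the variance prior taken from the probe sets whose replicates differ, a setting known from an earlier look at these data. In limma with this prior 2 member probe sets passed, EREG 1569583_at and EGFR 224999_at, both higher. This setting called 4.14% of all probe sets higher and 4.78% lower, and it too leaves out the spread between separate vector cultures. With 3 arrays an exact permutation test of a single value cannot give a two-sided p below 0.333, so none was run.

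By side of the vector alone, 9 of the 17 member probe sets (52.9%) read above the vector in both replicates, where 36.0% of all tested probe sets were. Another 4 (23.5%) were lower in both, against 33.1% of all, and in the remaining 4 the vector lay between or equal to the miR-146a values. Without the filter, 11 of all 29 member probe sets (37.9%) were higher in both and 9 (31.0%) lower, against 29.1% and 28.9% of the 54613 non-control probe sets. No member reached a log2 difference of 1 in both arrays, a size reached by 0.106% of all probe sets. As a scale for single differences, over all probe sets tested the 2 miR-146a arrays differed from each other with an SD of 0.13, and from the vector with SDs of 0.22 and 0.21.

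**Figure D1:**
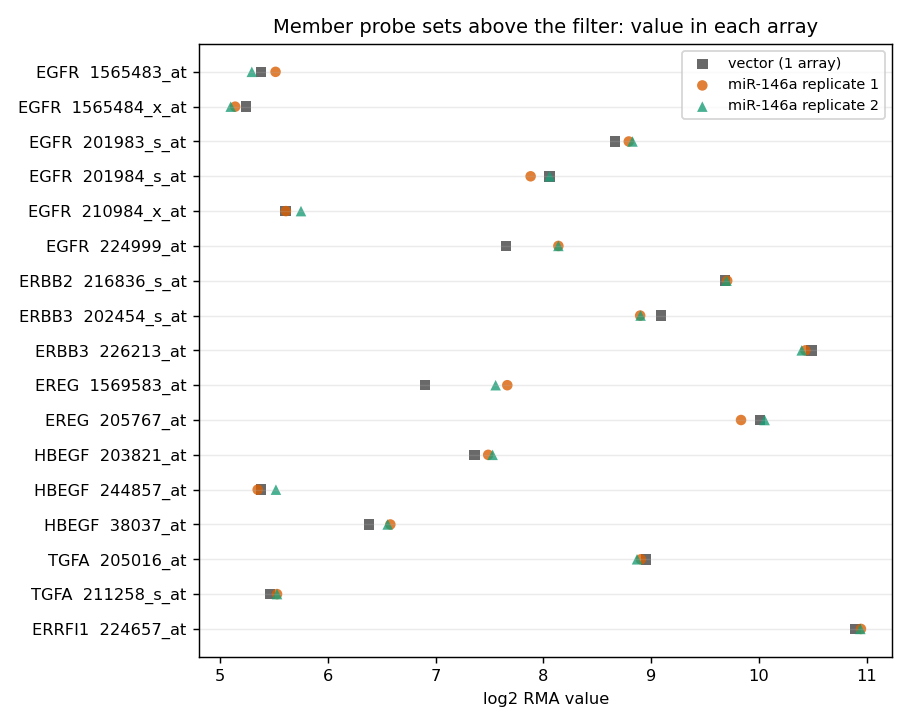
Log2 RMA value (x axis) of the 17 member probe sets above the filter (y axis, gene and probe set) in the vector array (squares) and in miR-146a replicates 1 (circles) and 2 (triangles). EREG 1569583_at and EGFR 224999_at have both miR-146a values well to the right of the vector, at 7.66 and 7.56 against 6.90 and at 8.14 and 8.14 against 7.65; positions of different probe sets along the axis do not rank the genes.

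Among the receptors, EGFR, which binds every ligand listed here, was covered by 9 probe sets, of which 6 passed the filter. Probe set 224999_at read 7.65 with the vector and 8.14 in each miR-146a array. Both miR-146a values stood above the vector and equalled each other to all the decimals given. The log2 difference was 0.48 (miR-146a 8.14 ± 0.0, SD, n = 2), a 1.40-fold difference that lay above 98.7% of all tested probe sets. Limma gave it an adjusted p of 0.131 with a standard error of 0.00886, and 0.00585 with the prior from unequal replicates, under which the standard error was 0.0995 and the 95% interval ran from 0.27 to 0.69. As its replicates were equal, the spread behind that second standard error comes wholly from other probe sets.

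The probe set of EGFR with the highest average signal, 201983_s_at, read 8.66 in the vector and 8.79 and 8.83 in the miR-146a arrays. It was thus also higher in both, but by 0.15 on the log2 scale (8.81 ± 0.024, SD, n = 2; limma adjusted p = 0.214). Probe set 201984_s_at read 8.06 in the vector, 7.88 in replicate 1 and 8.06 in replicate 2. Here replicate 2 equalled the vector and replicate 1 was lower, for a mean difference of -0.088 and a limma adjusted p of 0.738.

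The 3 other tested probe sets of EGFR had averages close to the filter. 210984_x_at read 5.61 in the vector against 5.61 and 5.75, 1565483_at read 5.38 against 5.51 and 5.29, and 1565484_x_at read 5.24 against 5.14 and 5.10. Their mean differences were 0.074, 0.025 and -0.12, and in the last of them both replicates lay below the vector. The 3 probe sets of EGFR below the filter differed by -0.17 to 0.13. Averaged over all 9, EGFR differed by 0.063. No tested probe set of EGFR passed as lower under either prior.

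ERBB2, the partner receptor that is amplified in some cancers, read 9.69 in the vector and 9.71 and 9.70 in the miR-146a arrays with its tested probe set, 216836_s_at. The 3 values lay within 0.020 of each other. The mean difference was 0.016 (9.70 ± 0.0047, SD, n = 2; limma adjusted p = 0.532), with a 95% interval from -0.041 to 0.073, or from -0.19 to 0.23 with the prior from unequal replicates. The other probe sets of ERBB2 were below the filter and differed by 0.0094 and -0.15.

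ERBB3, the receptor for neuregulins with a weak kinase, was lower in both arrays with both of its tested probe sets. 202454_s_at read 9.09 in the vector and 8.90 and 8.90 in the miR-146a arrays, a difference of -0.19 (8.90 ± 0.0027, SD, n = 2). 226213_at read 10.49 against 10.43 and 10.40, a difference of -0.072 (10.41 ± 0.024, SD, n = 2). Limma's adjusted p-values were 0.131 and 0.357, or 0.295 and 0.801 with the prior from unequal replicates, so neither difference passed. Of the 3 probe sets below the filter, 1563253_s_at (-0.23) and 215638_at (-0.26) were also lower in both arrays and 1563252_at (0.055) was not. Averaged over all 5, ERBB3 differed by -0.14.

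**Figure D2:**
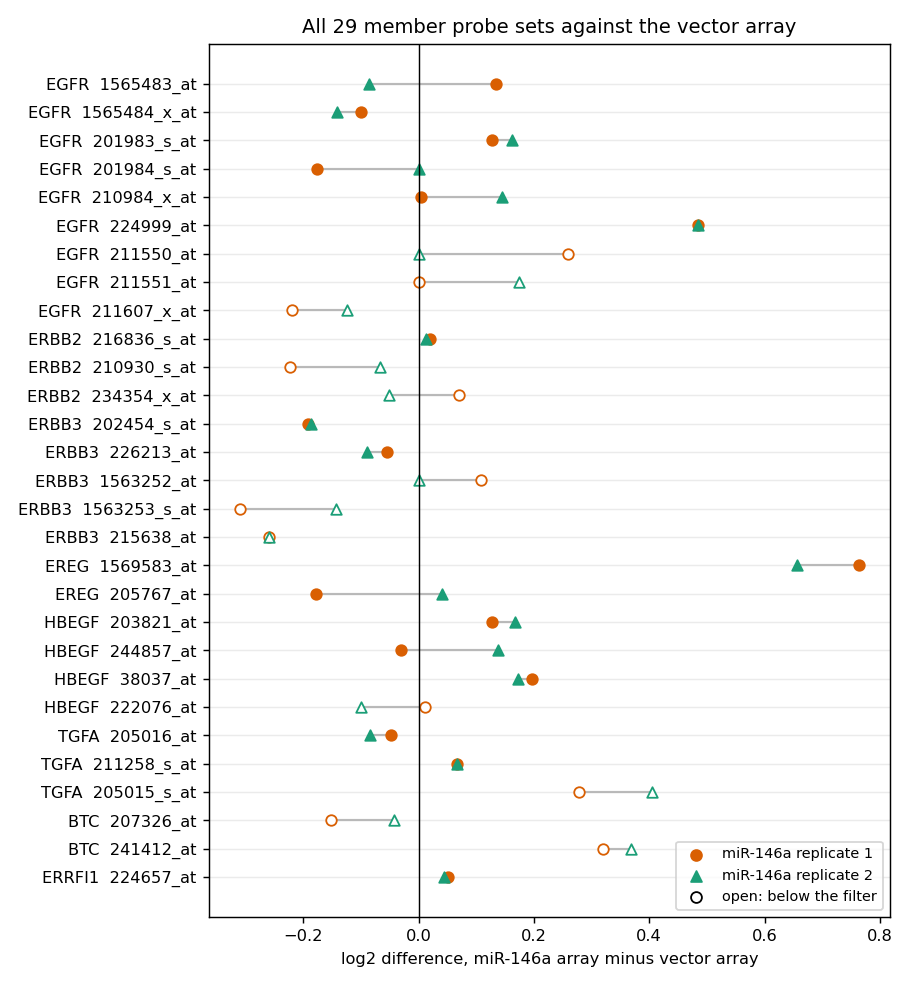
Log2 difference of each miR-146a array from the vector array (x axis; circles replicate 1, triangles replicate 2, joined by a line) for all 29 member probe sets (y axis), with open symbols for the 12 below the filter. Most pairs lie within 0.3 of 0, while EREG 1569583_at lies at 0.76 and 0.66 and EGFR 224999_at at 0.48 in both.

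Among the ligands, EREG (epiregulin, which activates EGFR and ERBB4) gave readings that disagreed between its probe sets. Probe set 1569583_at read 6.90 in the vector and 7.66 and 7.56 in the miR-146a arrays. Both miR-146a values stood above the vector by several times the gap between them. The log2 difference was 0.71 (7.61 ± 0.077, SD, n = 2), a 1.64-fold difference that lay above 99.7% of tested probe sets. Limma gave an adjusted p of 0.16, and 0.000451 with the prior from unequal replicates, where the 95% interval ran from 0.49 to 0.93.

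The other probe set of EREG, 205767_at, has the higher average signal and is the one kept when a gene is represented by a single probe set. It read 10.01 in the vector, 9.83 in replicate 1 and 10.05 in replicate 2. The vector lay between the miR-146a values, the mean difference was -0.069 (9.94 ± 0.15, SD, n = 2), and limma's adjusted p was 0.825. The mean of both probe sets differed by 0.32. Which stretch of the transcript each probe set reads was not analysed here, so a change in one transcript form and a difference between probe sets cannot be told apart.

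Disagreement of this size was uncommon on these arrays. Over the 5922 genes with at least 2 probe sets above the filter, the median range between a gene's lowest and highest mean difference was 0.18. The range was 0.78 for EREG, a width reached by 66 of those genes (1.11%), and by 16 of the 3346 genes (0.478%) with exactly 2 such probe sets. For EGFR it was 0.60, reached by 208 genes (3.51%), but among the 102 genes with 6 probe sets above the filter 17 (16.7%) were as wide. ERBB3, TGFA and HBEGF had ranges of 0.12 to 0.13, below the median of all.

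**Figure D3:**
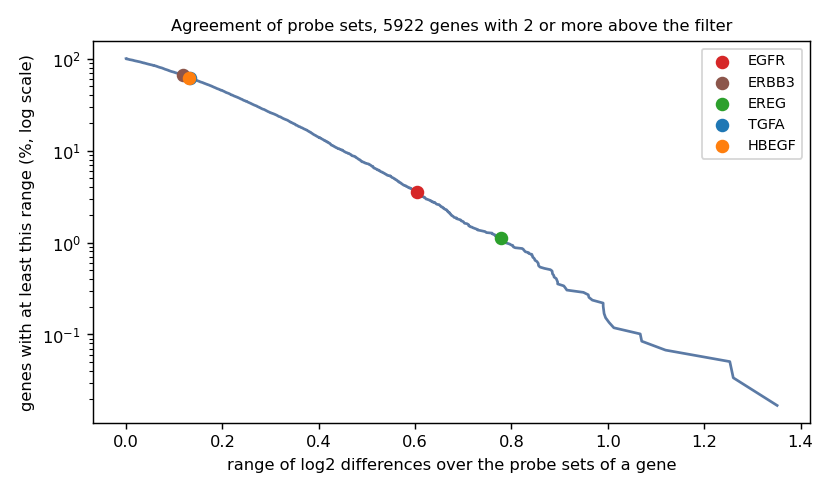
Share of genes (y axis, %, log scale) whose probe sets above the filter span at least a given range of log2 differences (x axis), over the 5922 genes with 2 or more; dots mark the family's 5 such genes. EREG lies at 0.78, with 1.11% of genes as wide, and EGFR at 0.60 with 3.51%, while ERBB3, TGFA and HBEGF sit together near 0.13 at the left (TGFA and HBEGF overlap).

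HBEGF, a heparin-binding ligand of EGFR and ERBB4, was slightly higher with its brighter probe sets. 203821_at read 7.36 in the vector and 7.49 and 7.53 in the miR-146a arrays, and 38037_at read 6.38 against 6.58 and 6.55. In both the vector lay below the replicates, by 0.15 (7.51 ± 0.029, SD, n = 2) and 0.18 (6.57 ± 0.017, SD, n = 2). Limma's adjusted p-values were 0.236 and 0.159, or 0.459 and 0.313 with the prior from unequal replicates, so neither difference passed. The third tested probe set, 244857_at, read 5.38 against 5.35 and 5.52, so the vector lay between the replicates, and the probe set below the filter differed by -0.044.

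TGFA, transforming growth factor alpha, read 8.95 in the vector and 8.90 and 8.87 in the miR-146a arrays with 205016_at, a difference of -0.066. With 211258_s_at it read 5.46 against 5.53 and 5.53, a difference of 0.067. The 2 tested probe sets therefore pointed in opposite directions, with adjusted p-values in limma of 0.393 and 0.179. The probe set below the filter, 205015_s_at, read 4.78 against 5.06 and 5.19, the largest TGFA difference (0.34), at a signal too low to be tested here.

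BTC, betacellulin, had no probe set above the filter. 241412_at read 4.92 in the vector and 5.24 and 5.29 in the miR-146a arrays, higher in both, and 207326_at read 4.77 against 4.62 and 4.73, lower in both. No direction can be given for BTC from these values.

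ERRFI1 (also called MIG6), a feedback inhibitor that binds the EGFR kinase and is induced by the pathway, read 10.90 in the vector and 10.95 and 10.94 in the miR-146a arrays with its single probe set, 224657_at. Both replicates were above the vector, by 0.047 (10.94 ± 0.0038, SD, n = 2; limma adjusted p = 0.237), and the 95% interval ran from -0.0073 to 0.10, or from -0.16 to 0.26 with the prior from unequal replicates.

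**Figure D4:**
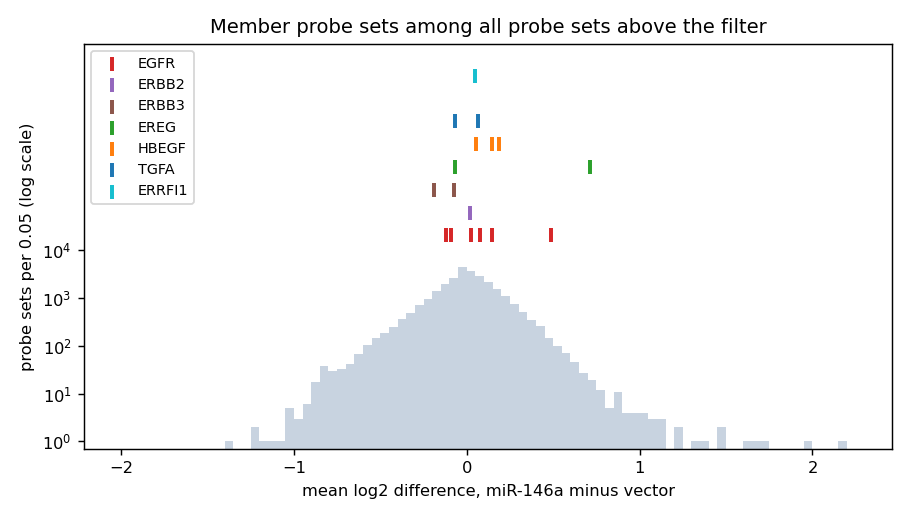
Histogram of the mean log2 difference (x axis) of all 27306 probe sets above the filter (y axis, probe sets per bin of 0.05, log scale), with the member probe sets as coloured ticks above it, 1 row for each gene at arbitrary height. EREG at 0.71 and EGFR at 0.48 lie in the right tail, above 99.7% and 98.7% of probe sets, and the other member ticks lie in the centre, between -0.19 and 0.18.

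With the brightest probe set of each gene, members were ranked by the smaller of their array differences. EGFR (201983_s_at) led those higher in both arrays at 0.128, just ahead of HBEGF (203821_at) at 0.127, which had the larger mean difference, and ERBB3 (226213_at) led those lower. The genes with the nearest pair of array differences were SELENOW, MRPL2 and BRPF3 for EGFR, at distances of 0.00319 to 0.00442 over the 2 differences, and RAP1GAP2, NDUFB10 and IPO5 for ERBB3, at 0.00252 to 0.00399. As 1680 and 2514 of the 12444 genes lay within 0.1 of EGFR and ERBB3, these patterns are common ones.

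In RefSeq's order of protein-coding genes on chromosome 4, EPGN, EREG, AREG and BTC follow one another directly. The 250 bases before the annotated starts were available for 9 of the 10 genes (all but ERBB3), with 2 starts each for EGFR and TGFA, 11 windows in all. They were searched on both strands for the letters of 6 motifs that cannot occupy the same bases in full: AP-1 (TGANTCA), the cAMP response element CRE (TGACGTCA), the interferon elements ISRE (GAAA, 2 bases of any kind, GAAA) and GAS (TTCNNNGAA), TEAD (GGAATG) and SP1 (GGGCGG). Windows are printed for EREG and EGFR, the genes whose probe sets stood farthest from the vector. Of the starts of EGFR the second was chosen because its window holds AP-1 and TEAD letters, not for any array value. The window of the first EGFR start, which is not printed, lies upstream at chr7:55018767-55019016. The sequences are from RefSeq GRCh38.p14, plus strand, at chr4:74364895-74365144 and chr7:55109589-55109838, 5′ to 3′, with the AP-1 and TEAD letters in capitals.
EREG: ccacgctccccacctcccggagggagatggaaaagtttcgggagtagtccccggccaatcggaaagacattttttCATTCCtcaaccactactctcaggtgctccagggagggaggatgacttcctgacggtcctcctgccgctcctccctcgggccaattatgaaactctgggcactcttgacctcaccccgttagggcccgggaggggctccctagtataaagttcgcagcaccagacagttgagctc
EGFR, second start: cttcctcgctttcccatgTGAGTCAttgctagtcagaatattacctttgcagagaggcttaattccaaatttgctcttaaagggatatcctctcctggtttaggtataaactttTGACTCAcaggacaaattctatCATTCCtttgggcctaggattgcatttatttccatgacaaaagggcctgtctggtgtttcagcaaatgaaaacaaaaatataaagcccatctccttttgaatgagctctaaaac

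The window of EREG holds the TEAD letters on the opposite strand, 175 bases before the start. The second EGFR window holds the AP-1 letters 232 and 136 bases before the start and the TEAD letters 114 bases before it. The window of the first EGFR start holds the SP1 letters and neither of these. Among all 35116 windows of this length, 6.57% hold the AP-1 letters and 11.9% the TEAD letters. The AP-1 letters also occur in the window of ERBB2, and the CRE letters in that of AREG (1.65% of all windows). SP1 letters, held by 42.6% of all windows, occur in 5 of the 11, and the ISRE (3.02%) and GAS (6.57%) letters in 0 of the 11. A match describes the letters only.

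The rest of the pathway was described with 1 probe set for each gene, the one with the highest average signal, so that each gene counts once. In limma 0 genes of these lists passed over all 12444 genes tested. With the prior from unequal replicates 4.76% of all genes passed as higher and 2.36% as lower. Both replicates read above the vector in 40.2% of all genes and below it in 28.8%, and the median difference of all genes was 0.015.

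Of the other receptor and ligands of the family, 1 of 6 was above the filter. NRG1, a neuregulin that binds ERBB3, read 5.81 in the vector and 6.01 and 6.01 in the miR-146a arrays with the 1 of its 6 probe sets that passed. ERBB4, EGF, NRG2, NRG3 and NRG4 stayed below the filter in all arrays, with values between 2.64 and 4.95.

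Of the 11 genes of ligand shedding and trafficking, 4 read above the vector in both replicates (40.2% of all genes did) and 6 below (28.8%). The median was -0.012, or -0.086 with the mean of all probe sets of each gene. ADAM9, a membrane metalloprotease, read 11.22 with the vector and 10.80 and 11.01 with miR-146a, a difference of -0.32, and its other probe sets above the filter were at -0.66 and -0.47. ADAM10, a main sheddase of EGF and BTC, differed by -0.10, with its others at -0.62 and -0.38. ADAM17, the main sheddase of TGFA, AREG, EREG and HBEGF, differed by -0.049, with others from -0.47 to -0.034. The inactive rhomboid RHBDF2, which escorts ADAM17, was at 0.17, and the rhomboid protease RHBDL2 at -0.29 (others from -0.32 to 0.14). With the probe set used for each gene, 0 of the list passed under either prior. Of the 13 other probe sets of these genes above the filter, 0 passed in limma. The prior from unequal replicates called 4.78% of all tested probe sets lower. With it, adjusted over all probe sets, 5 of the 13 passed as lower. They were both others of ADAM9, both of ADAM10 and 1 of ADAM17 (205746_s_at). In limma with that prior, their adjusted p-values were 0.00111 and 0.0072, 0.00123 and 0.0236, and 0.0069.

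Among the genes of receptor turnover and inhibition, 17 of 25 read below the vector in both replicates and 8 above, and the median was -0.072 (-0.031 and -0.028 in replicates 1 and 2 alone). LRIG2, of a family of leucine-rich membrane proteins whose member LRIG1 restrains EGFR, read 7.14 in the vector and 6.59 and 6.46 in the miR-146a arrays, 1.53-fold lower, whereas a second tested probe set was at 0.033. PTPN1, a phosphatase that acts on EGFR, read 7.48 against 7.96 and 7.75, 1.30-fold higher. With the prior from unequal replicates these were the only members of the list to pass with the probe set used. In limma with that prior, their adjusted p-values were 0.00283 and 0.0454. Of the 31 others above the filter, 2 passed as lower under it, where 4.78% of all tested probe sets did. These 2 were 1 each of RAB5A (-0.62) and HSP90AB1 (-0.43), whose probe sets used for the list were at -0.055 and -0.013. EPS15 (-0.26), an endocytic adaptor, and USP8 (-0.19), a deubiquitinase of sorted receptors, were lower in both arrays without passing, and the ubiquitin ligases CBL (-0.080) and CBLB (-0.088) lay near the vector.

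Among the adaptors and kinases of the cascade, 28 of 38 were measured. Of these, 11 read above the vector in both replicates (40.2% of all genes did) and 8 below (28.8%). The list median was 0.013. PIK3R1, the regulatory subunit of PI3 kinase, read 8.79 in the vector and 9.16 and 9.20 in the miR-146a arrays, 1.31-fold higher, with its other probe sets at -0.031 and 0.0. NF1, which switches RAS off, read 6.45 against 5.84 and 5.94, 1.47-fold lower. With the probe set used, these alone passed with the prior from unequal replicates. In limma with that prior, their adjusted p-values were 0.0199 and 0.00399. Of the 28 others above the filter 2 passed under it, both lower, where 4.78% of all tested probe sets passed as lower. Both were of the phosphatase PTPN11 (-0.75 and -0.62), whose probe set used for the list was at -0.24. The adaptor SHC1 (0.32, other probe set 0.17) and HRAS (0.22) were higher in both arrays without passing.

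Among genes induced by ERK, 15 of 18 measured read above the vector in both replicates and 0 below, and the median was 0.21 (0.22 and 0.21 in replicates 1 and 2). FOSL1, an AP-1 subunit, read 8.60 in the vector and 9.20 and 9.22 in the miR-146a arrays, 1.52-fold higher. LIF, a cytokine of the interleukin-6 family, read 7.35 against 7.83 and 7.77, 1.37-fold higher. EPHA2, a receptor tyrosine kinase, was 1.35-fold higher (9.45 ± 0.076, SD, n = 2, against 9.02). EGR1, an early response factor, reached 1.33-fold (10.34 ± 0.021, SD, n = 2, against 9.92), with its other probe sets at 0.62 and 0.68. With the prior from unequal replicates 7 members passed in limma, all higher, where 4.76% of all genes passed as higher. The 7 were the 4 genes above and, in limma with that prior, DUSP4 (adjusted p = 0.0312), DUSP6 (adjusted p = 0.039) and CCND1 (adjusted p = 0.0355). Other probe sets of the list's genes did not all read higher: those of DUSP4 were at -0.057 and 0.45, of SPRED1 at -0.39 and -0.080, of PLAUR at -0.49 and -0.046, and of PHLDA1 between -0.30 and 0.15. Of the list's 20 others above the filter, 6 passed as higher under that prior, where 4.14% of all tested probe sets did. All 6 were of DUSP4, DUSP6, EGR1 and CCND1, which are already among the 7. Another 1, of PLAUR, passed as lower, where 4.78% of all tested probe sets did. The adjusted p of that PLAUR probe set was 0.00989 in limma with that prior. ERRFI1, itself an ERK-induced gene, differed by 0.047 in the same arrays. An excess of higher genes in a list of this kind was already known from an earlier look at these data, so the count is no independent evidence.

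**Figure D5:**
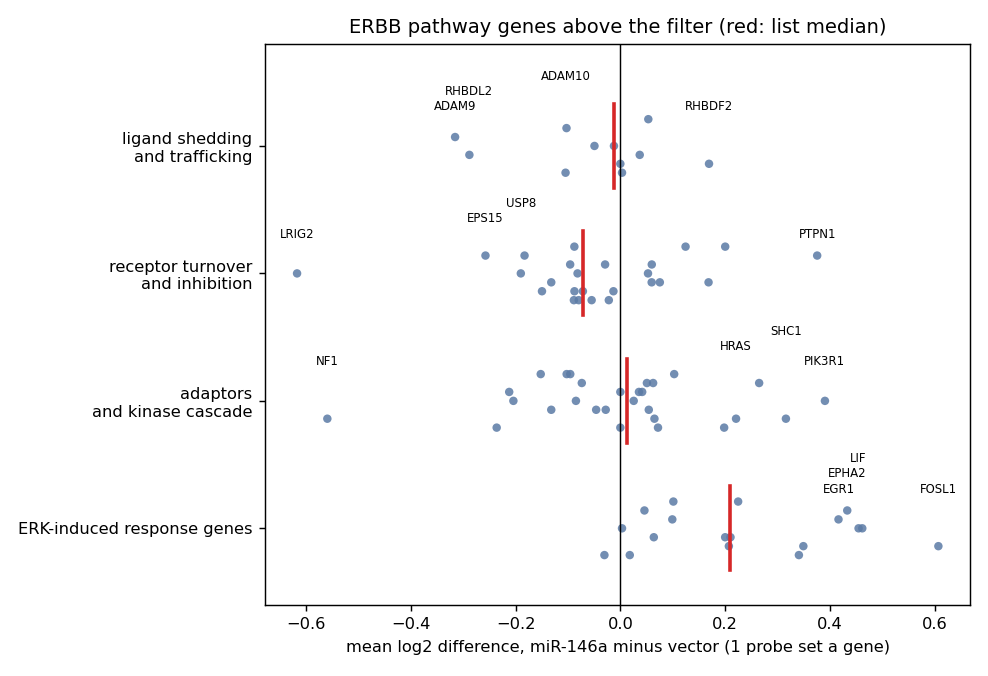
Mean log2 difference, miR-146a minus vector (x axis), of the genes above the filter in 4 lists of the pathway (y axis), 1 point for each gene with small vertical offsets for legibility, the list median as a red bar and names for up to 4 genes a list. The ERK-induced genes have their median at 0.21 with FOSL1 farthest right at 0.61, while the other medians lie between -0.072 and 0.013, with LRIG2 (-0.62) and NF1 (-0.56) farthest left.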

How the data were processed

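Biotinylated cRNA was made from total RNA of the HT29 cells and measured on Affymetrix arrays, per the labels' protocols. The authors deposited log2 values for 54675 probe sets on 3 arrays, made with RMA per the submitters' processing notes; the version and any arrays processed alongside are not stated there. No scanner files or detection calls were used, so the number of arrays and the signal level limit the precision.

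Members were matched by symbol through the platform annotation, under which 41091 of the 54613 non-control probe sets have 1 gene, 1801 several and 11721 none; all 8 members with a probe set matched a current RefSeq gene by Entrez number. Members and gene lists were chosen with earlier results of these data known.

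Each probe set was tested separately by lmFit and eBayes of limma 3.58.1 in R 4.3.3, as a two-sided test adjusted by Benjamini-Hochberg over the 27306 probe sets above the filter and a threshold of 0.05. For the prior from unequal replicates, limma's fitFDist was run on the probe sets whose replicates differ. The moderated t-test was then computed from it outside eBayes, also for probe sets with equal replicates. Differences are the miR-146a mean minus the vector. The fit was also run on simulated data without tied replicates. As these arrays hold ties, that run does not show how the fit behaves here. Named are all members and, of each list, up to 4 genes above the filter by the smaller of their array differences; ADAM17, CBL, CBLB, DUSP4, DUSP6, CCND1, SPRED1, PLAUR, PHLDA1, RAB5A, HSP90AB1, PTPN11 and CDH17 were added after their values were seen. Alternatives were other filters, variance priors and normalizations, 1 value a gene, and leaving out either miR-146a array. Figures were drawn with matplotlib 3.10.9.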

Additional observations from a re-analysis of the deposited data

How the results depend on the processing

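The count of member probe sets that passed in limma was 0 under every setting run (no filter, a filter at percentile 70, an intensity trend or robust prior, cyclic loess, quantile normalization, and 1 value a gene) except with the prior from unequal replicates, where it was 2. The number higher in both miR-146a arrays was 9 of 17 probe sets, where 36.0% of all tested probe sets were. It was 8 with cyclic loess, and 6 with the filter at percentile 70, which keeps fewer probe sets. By gene it was 4 of 7 with the brightest probe set, where 40.2% of all genes were, or 5 of 7 with the mean of a gene's probe sets. Without replicate 1 or 2, 10 to 11 of the 17 probe sets read above the vector in the remaining miR-146a array. The share over all features was not taken for cyclic loess, the filter at percentile 70, the gene means or single arrays. Over all features, 29 probe sets were at least 1 apart on the log2 scale in both arrays, against 18 genes by brightest probe set and 15 by the mean, where fewer features were tested; without replicate 1 or 2 this ranged from 38 to 41. Averaging every probe set of a gene, also those under the filter, turned the sign for ERBB2 (-0.040), EREG 205767_at (0.32) and TGFA 205016_at (0.11), none of which had passed, and moved the median of the shedding list to -0.086. The median of the turnover list was -0.028 without replicate 1 and -0.031 without replicate 2. The cause was not tested. No paired analysis was possible because the vector group holds 1 array. Without either miR-146a array no test remains, as 1 array is then set against 1.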
